A study of Mus musculus with 12 samples.

Results

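The genes described here encode the nuclear subunits of the mitochondrial respiratory chain and of ATP synthase, and were followed through 12 libraries of mouse gastrocnemius, a calf muscle. They were chosen by name: protein-coding nuclear genes whose symbol begins with Nduf, Uqcr, Atp5 or with Cox followed by 4, 5, 6, 7 or 8, together with Sdha, Sdhb, Sdhc, Sdhd, Cyc1 and Cycs. The rule gave 95 genes of the 47643 in the count table, of which 36 belong to complex I, 4 to complex II, 9 to complex III, 20 to complex IV and 17 to complex V. The remaining members are cytochrome c (Cycs) and 8 assembly factors of complex I, which share the Nduf prefix without being subunits. Complex IV was taken to include Ndufa4, its paralogue Ndufa4l2 and Cox7a2l. Of the 95, 86 had enough reads to be tested. No measured value entered the choice.

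Oxidative phosphorylation moves electrons from NADH through complex I, and from succinate through complex II, to complex III, then by cytochrome c to complex IV, where oxygen is reduced. The protons pumped on the way drive complex V, the ATP synthase. Complex II is encoded wholly in the nucleus, whereas complexes I, III, IV and V combine nuclear subunits with subunits made from the mitochondrial genome. In muscle these transcripts are abundant, and fibres that work for long periods hold more of them than fast glycolytic fibres.

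All mice were female C57BL/6J aged 11 weeks. Their genotype was control or c-myc over-expression, c-myc (Myc) being a growth-promoting transcription factor. Each of 3 animals per genotype gave an uncontracted left and an acutely contracted right lower leg, which made 4 groups of 3 libraries. Body side and contraction cannot be told apart. The labels describe neither the construct that carries Myc, the cells it acts in, nor the time between contraction and sampling.

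Libraries held 1371732 to 1643216 reads, so that 1 read was worth 0.609 to 0.729 CPM (reads of a gene scaled to the library total, as in all CPM values below) and the limit allowed by a count of 0, taken as 3 reads, was 1.83 to 2.19 CPM. This limit covers counting error only. Transcripts of the mitochondrial genome took 27.1 to 35.2% of reads. Myc itself had 0, 1 and 0 reads in uncontracted controls 1, 2 and 3 and 11, 9 and 9 in uncontracted legs labelled Myc. In contracted legs it had 1, 10 and 59 reads in controls and 32, 0 and 2 in legs labelled Myc. Contracted libraries 2 and 3 thus held more Myc reads in controls than in legs labelled Myc, the reverse of the labels. They are called below the 4 libraries that go against their labels. The reads of contracted controls may also reflect contraction itself, which was not tested, so they do not show a label to be wrong. Groups below follow the labels as deposited, and medians over the members, with the changes of the members of smallest p, are also given without these 4 libraries, a fit that leaves 1 contracted library per genotype. The fast fibre genes summed to 116172 to 150328 CPM in every library, while Ucp1, the defining gene of brown fat, was at 0 in all 12. Fewer cells of a type and less RNA per cell cannot be told apart in such tissue libraries.

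Promoter sequences are shown for 4 members with a motif match, to make visible the letters that were searched. They were picked for their matches among the members with the smallest p in at least 1 comparison below. Of the others with an entry, Ndufaf1 held an ETS motif, and Ndufa10, Cox5b, Cox7a1 and Uqcrfs1 held no match. RefSeq (build GRCm38.p6) held an entry, 250 bases before to 50 bases after the gene start, for 77 of the 95 members. Both strands were searched for CACGTG, the E-box to which Myc and its relatives bind, for GCATGCGC, a part of the motif of the respiratory gene regulator NRF1, and for CCGGAAG, an ETS motif to which GABPA binds. Capitals mark the matches, and a match on the other strand appears as its reverse complement (CTTCCGG for the ETS motif).
Ndufv1 (chr19:4012706-4013005, minus strand): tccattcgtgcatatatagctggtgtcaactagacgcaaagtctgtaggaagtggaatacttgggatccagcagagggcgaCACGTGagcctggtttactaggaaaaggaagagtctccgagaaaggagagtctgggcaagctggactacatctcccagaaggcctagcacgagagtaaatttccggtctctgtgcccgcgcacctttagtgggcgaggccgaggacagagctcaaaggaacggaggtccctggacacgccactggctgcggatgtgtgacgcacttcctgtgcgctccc
Cox6a1 (chr5:115348909-115349208, minus strand): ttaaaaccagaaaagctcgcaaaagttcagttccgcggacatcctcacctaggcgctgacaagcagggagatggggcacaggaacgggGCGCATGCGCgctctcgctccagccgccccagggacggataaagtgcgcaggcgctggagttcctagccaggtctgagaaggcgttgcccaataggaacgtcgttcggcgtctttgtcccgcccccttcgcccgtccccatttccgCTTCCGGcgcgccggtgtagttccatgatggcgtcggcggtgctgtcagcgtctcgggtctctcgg
Atp5k (chr5:108434350-108434649, minus strand): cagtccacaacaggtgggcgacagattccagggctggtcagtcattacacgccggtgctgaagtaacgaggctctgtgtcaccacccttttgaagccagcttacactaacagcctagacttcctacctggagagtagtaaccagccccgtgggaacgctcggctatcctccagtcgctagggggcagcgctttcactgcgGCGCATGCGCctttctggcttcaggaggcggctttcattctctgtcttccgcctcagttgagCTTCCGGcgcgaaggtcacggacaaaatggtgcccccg
Ndufaf4 (chr4:24897833-24898132, plus strand): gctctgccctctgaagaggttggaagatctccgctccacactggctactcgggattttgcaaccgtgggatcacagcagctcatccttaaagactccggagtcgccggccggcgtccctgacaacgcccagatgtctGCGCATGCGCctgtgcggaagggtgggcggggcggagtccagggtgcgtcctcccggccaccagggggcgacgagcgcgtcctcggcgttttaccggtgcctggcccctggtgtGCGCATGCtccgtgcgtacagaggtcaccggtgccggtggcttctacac

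The Ndufv1 window holds a single E-box that starts 169 bases before the gene start. Those of Cox6a1, Atp5k and Ndufaf4 hold GCATGCGC on both strands in overlapping positions, which form 1 stretch in capitals, and Ndufaf4 holds the word once more at its start. Among the 77 members, 6 (7.79%) held the E-box, compared with 12.8% of the 5358 tested genes that have an entry and 8.09% of all 27025 entries. The NRF1 word was found in 13 members (16.9%), compared with 6.64% of tested genes and 3.05% of all entries. The ETS motif was found in 18 members (23.4%), in 22.3% of tested genes and in 9.93% of all entries. E-boxes lay in 4 of 15 entries for complex V (Atp5f1, Atp5g1, Atp5g3 and Atp5l), in 2 of 32 for complex I (Ndufa7 and Ndufv1) and in none of 14 for complex IV. These are matches of letters in a window and were not shown to be binding sites.

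The level of the members spanned more than 3 orders of magnitude on the CPM scale. Because each read of a 3′ library marks 1 transcript end, CPM was not divided by gene length. The highest means over the 12 libraries were those of Cox6a2 in complex IV (1975 CPM), Atp5k in complex V (1725 CPM), Ndufa5 in complex I (1433 CPM), Uqcrc1 in complex III (972 CPM) and Sdhb in complex II (860.4 CPM). Ndufa5 is an accessory subunit, Uqcrc1 a core protein and Sdhb the iron-sulfur subunit of its complex. In the order uncontracted control, contracted control, uncontracted Myc and contracted Myc, Ndufa5 had 1481, 1340 and 1353, then 1468, 1375 and 1322, then 1423, 1607 and 1491, then 1537, 1377 and 1424 CPM. Uqcrc1 had 1116, 910.0 and 804, then 912, 978 and 949, then 1024, 1188 and 985, then 1079, 844 and 873 CPM in the same order. Both were highest in uncontracted Myc 2, and their 4 groups overlap. Cycs, the mobile carrier between complexes III and IV, had 151, 142 and 139.9, then 141, 140.4 and 143, then 154, 178 and 153, then 166, 136 and 149 CPM.

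**Figure D1:**
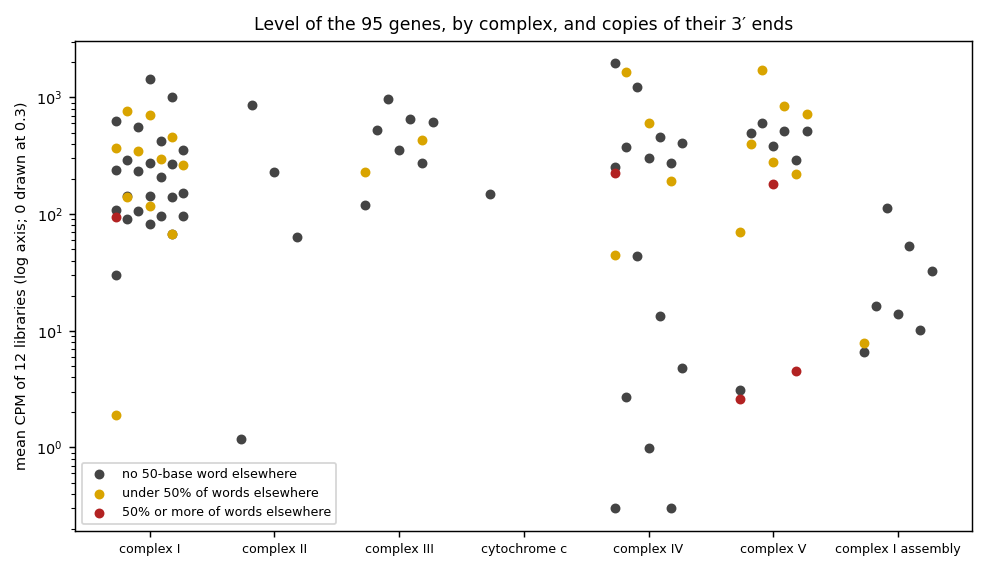
Mean level of each of the 95 genes over the 12 libraries (CPM, log axis, genes without a read drawn at 0.3) by complex, coloured by the share of 50-base words in the last 300 bases of their transcripts that also occur in transcripts of other genes. Most genes lie above 10 CPM, the highest at 1975, and a few in complexes I, II, IV and V lie below 5 CPM.

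Of the members, 9 had too few reads to be tested. Cox7b2 and Cox8c had no read in any library, Cox6b2 had 18 reads over all 12, Sdhd 22, Ndufs5 35, Atp5g2 48, Cox4i2 50, Atp5s 57 and Atp5l 83. Sdhd, a membrane anchor of complex II, averaged 1.19 CPM beside 860.4 CPM for Sdhb. Where a transcript's end resembles other genes, reads may be lost or shared, so the last 300 bases of each member's transcripts were searched in 50-base words among all other transcripts. No word recurred for 65 members, some but fewer than 50% for 25, and 50% or more for Atp5l (70.1%), Cox7c (65.2%), Atp5h (59.2%), Ndufs3 (53.0%) and Atp5g2 (52.6%). The counts of those 5 are uncertain for this reason. For Ndufs5 the share was 47.8% and for Sdhd it was 0%.

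Complex IV has subunits with a muscle form and a more general form, and the muscle forms were not uniformly the higher ones. Groups are given in the order uncontracted control, contracted control, uncontracted Myc, contracted Myc. Cox6a2, the heart and skeletal muscle form, had 1863, 1730 and 1973, then 1772, 2058 and 2086, then 2056, 2186 and 1589, then 2001, 2193 and 2191 CPM. Cox6a1, the general form, had 41.6, 37.7 and 35.8, then 47.8, 50.8 and 52.1, then 40.6, 54.8 and 37.9, then 54.5, 44.4 and 40.2 CPM. In every library Cox6a2 had 36.7 to 55.1 times the reads of Cox6a1.

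Cox8b, another muscle form, had 472, 461 and 439, then 454, 412 and 442, then 420.4, 567 and 497, then 497, 382 and 419 CPM. Its counterpart Cox8a had 15.3, 15.4 and 13.0, then 6.73, 14.5 and 12.8, then 14.0, 13.2 and 13.9, then 12.6, 15.8 and 15.1 CPM. The ratio of their reads was 24.2 to 67.5, with the highest value in contracted control 1, where Cox8a had its lowest level. Cox7a1, a further muscle form described with contraction below, and Cox7a2 were near parity, at ratios of 0.731 to 1.11. Cox7a2 had 421, 368 and 381, then 373, 414 and 404, then 432, 462 and 400.2, then 453, 365 and 392 CPM, and its groups overlap.

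Cox4i1 had 253.5 to 1333 times the reads of Cox4i2, the form known from lung and from low oxygen. The width of that range comes from Cox4i2, with 2, 5 and 2, then 6, 3 and 1, then 5, 9 and 5, then 2, 4 and 6 reads. Cox6b2, known from testis, had 0 to 3 reads in each library, where Cox6b1 had 206 to 287 CPM. Ndufa4 had 23.8, 40.2 and 43.0, then 43.7, 52.7 and 45.3, then 45.7, 58.8 and 32.8, then 52.4, 34.7 and 48.4 CPM. This was 3 to 22.3 times the reads of Ndufa4l2, a paralogue known to be induced by low oxygen, which had 6.35, 2.64 and 2.92 CPM in uncontracted and 8.38, 3.04 and 5.66 CPM in contracted legs labelled Myc.

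The c-ring of ATP synthase is encoded by 3 genes with the same mature protein. Atp5g1 had 448, 331 and 367, then 369, 402 and 444, then 405, 454 and 378, then 443, 369 and 374 CPM. Atp5g3 had 364, 472 and 483, then 448, 528 and 571, then 548, 603 and 402, then 547, 514 and 528 CPM, or 0.813 to 1.43 times the reads of Atp5g1. Neither separated the groups, and Atp5g2 stayed between 2 and 7 reads.

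The first comparison asked what Myc over-expression does in muscle at rest. Uncontracted legs labelled Myc held more reads of these genes than uncontracted controls, by a small margin spread over most members, but no single gene passed the test. Summed over the 95 genes, the controls held 31156, 30168 and 30616 CPM and the legs labelled Myc 33321, 37229 and 32431 CPM. Every Myc library lay above every control, at means of 34327 ± 2552 and 30647 ± 495 CPM (SD, n = 3). After scaling by library composition (TMM) the sums also did not overlap, but by a narrow margin. The highest control then stood at 32858 CPM and the lowest Myc library at 33064 CPM. The fitted log2 change was above 0 for 73 of 86 members, with a median of 0.13, whereas 50.7% of all tested genes lay below 0 with a median of -0.01.

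By edgeR's quasi-likelihood test with Benjamini-Hochberg adjustment over 6676 genes, 0 members passed, beside 0.00% of all genes. At an unadjusted p under 0.05, 5 members were higher and 0 lower, where 3.71% and 2.59% of all genes were, and DESeq2 also called 0 members. In 21 members all 3 Myc libraries lay above all 3 controls, and in 0 all lay below, compared with 7.26% and 5.60% of all tested genes. Overlap here and below was judged after TMM scaling, which can differ from the CPM values printed. Other scalings gave 20 to 24 such members. The interval around a single member's change reached a median of 0.27 to either side on the log2 scale, about 2 times the median change itself.

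In complex II the 3 tested genes lay above 0 (median log2 change 0.16), as did Cycs. Complex III, which takes electrons from ubiquinol, also had all of its genes on 1 side. All 9 of its genes lay above 0 (median log2 change 0.17), and in 6 of them (Uqcr10, Uqcr11, Uqcrc2, Uqcrfs1, Uqcrh and Uqcrq) the groups did not overlap. Its summed level was 4145, 3763 and 3881 CPM in controls and 4442, 4929 and 4282 CPM in legs labelled Myc, and these sums did not overlap under either scaling. Uqcrfs1, the Rieske iron-sulfur protein of the complex, had 85.6, 99.5 and 107 CPM in controls and 129, 139 and 115 CPM in legs labelled Myc. Its log2 change was 0.36 ± 0.13 (SE), with an adjusted p of 0.564. With 1 library left out the change ranged from 0.28 without uncontracted control 1 to 0.43 without uncontracted control 2. Uqcrq, a small subunit, had 468, 491 and 518 CPM against 582, 635 and 578 CPM, a log2 change of 0.25 ± 0.12 and an adjusted p of 0.766.

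In complex IV 14 of 16 tested genes lay above 0, with a median of 0.15, and the summed level was 7713 ± 162 CPM in controls and 8855 ± 714 CPM in legs labelled Myc. These sums did not overlap in CPM but did after TMM scaling. Cox5b, a nuclear subunit of the enzyme, had 165, 178 and 174 CPM in controls and 219.7, 250.3 and 205 CPM in legs labelled Myc. This was the smallest p of any member in the comparison, at a log2 change of 0.35 ± 0.12 and an adjusted p of 0.564. Cox6b1, which faces the intermembrane space, had 206, 229.8 and 245 CPM against 286, 287 and 259.5 CPM and again did not overlap.

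In complex V 13 of 14 tested genes lay above 0 (median 0.11), and the sums were 6981 ± 129 and 7848 ± 614 CPM, without overlap under either scaling. After TMM scaling the groups nearly touched, with the highest control at 7582 CPM and the lowest Myc library at 7590 CPM. Atp5c1, the gamma subunit that turns within the catalytic head, had 217, 255 and 262 CPM in controls and 298, 334 and 289 CPM in legs labelled Myc (log2 change 0.30 ± 0.12, adjusted p = 0.681). Atp5k, which encodes subunit e of the membrane part, had 1724, 1648 and 1726 CPM against 1837, 2137 and 1887 CPM.

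In complex I, the entry point for NADH, 28 of 35 tested genes lay above 0 (median 0.12), and 8 did not overlap, among them Ndufa8 and Ndufb10. The sums of complex I (10525 ± 412 and 11371 ± 735 CPM) and of complex II (1107 ± 68.6 and 1272 ± 154 CPM) overlapped between the groups. Cytochrome c had 151, 142 and 139.9 CPM in controls and 154, 178 and 153 CPM in legs labelled Myc, which separate in CPM and overlap after TMM scaling. Of the 8 assembly factors of complex I, 5 lay above 0. Ndufaf4, one of these, had 24.5, 28.4 and 28.0 CPM in controls and 43.2, 37.0 and 37.2 CPM in legs labelled Myc, a log2 change of 0.51 ± 0.20 and an adjusted p of 0.681.

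**Figure D2:**
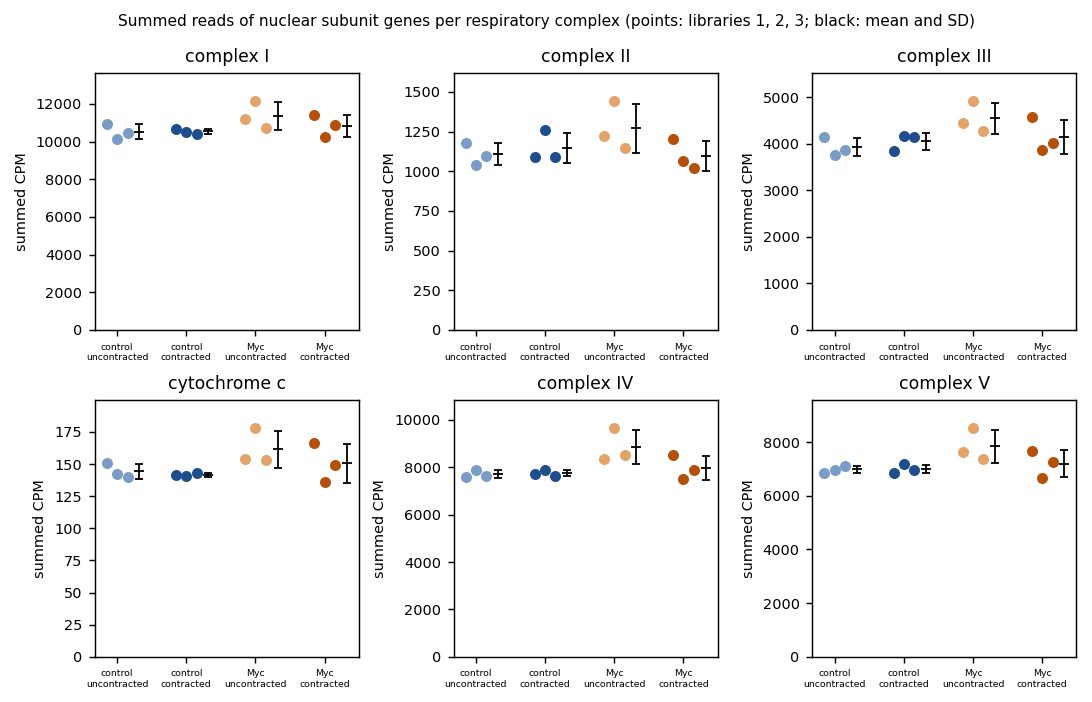
Summed level of the nuclear genes of each complex (CPM, from 0) in each of the 12 libraries, with points for libraries 1, 2 and 3 of each group and black marks for the mean and SD. In complexes III, IV and V and in cytochrome c the uncontracted Myc libraries lie above all uncontracted controls in CPM (after TMM scaling only in III and V), and uncontracted Myc 2 is the highest of all 12 in every panel.

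Fibre type markers differed between the same groups. The 9 fast fibre genes summed to 143025 to 150328 CPM in uncontracted controls and to 125979 to 137942 CPM in uncontracted legs labelled Myc, and 8 of 9 lay below 0. The 9 slow or oxidative fibre genes summed to 5429 to 5534 and 5639 to 7526 CPM, and 7 of 9 lay above 0. Fibroblast genes summed to 857 to 1398 and 639 to 701 CPM, with all 4 tested below 0. Macrophage genes summed to 93.9 to 130 and 73.7 to 89.8 CPM, with all 3 tested below 0. No gene of these lists passed the test, and their part in the level of the respiratory genes was not tested.

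The next comparison set contracted against uncontracted legs of controls, to ask what acute contraction changes without added Myc. The respiratory genes stayed close to their level at rest. Their sum was 30603, 31404 and 30668 CPM in contracted legs, within the range of uncontracted legs but for contracted control 2, and 48 members lay above 0 and 38 below. The median log2 change was 0.01, as it was over all tested genes, and it was also 0.01, with 47 of 87 members above 0, without the 4 libraries that go against their labels. All 7 sums by complex, the assembly factors included, overlapped between the groups. Although 2.80% of all genes passed, 0 members did by edgeR or by DESeq2. Only 1 was lower at an unadjusted p under 0.05 and 0 were higher, where 4.67% and 8.18% of all genes were. The groups did not overlap in 1 higher and 1 lower member, compared with 9.71% and 7.12% of all genes.

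The smallest p belonged to Ndufa4l2, which had 7.95, 9.27 and 3.25 CPM in uncontracted and 3.36, 2.64 and 2.03 CPM in contracted controls. These values correspond to 13, 15 and 5 reads against 5, 4 and 3, and the ranges overlap between uncontracted control 3 and contracted control 1. The log2 change was -1.37 ± 0.54 and the adjusted p was 0.251 (-1.002 without the 4 libraries that go against their labels). Cox6a1, the general form beside the muscle form Cox6a2, had 41.6, 37.7 and 35.8 CPM in uncontracted and 47.8, 50.8 and 52.1 CPM in contracted controls. It was the 1 member that was higher without overlap, whereas the values in legs labelled Myc given above overlap (log2 change 0.35 ± 0.18, adjusted p = 0.410, or 0.33 without the 4 libraries). Ndufa10, an accessory subunit of complex I, had 202, 125 and 239 CPM against 163, 271 and 319.9 CPM, a spread that covers both groups (0.39 ± 0.21, adjusted p = 0.464). Its direction turned, to -0.18, without the 4 libraries, and it ranged from 0.19 without uncontracted control 2 to 0.59 without contracted control 1. In legs labelled Myc it had 237, 189.5 and 128 CPM uncontracted and 181, 237 and 219 CPM contracted. Atp5j2, subunit f of ATP synthase, was the 1 lower member without overlap, at 876, 830.3 and 916 CPM against 821, 858 and 763 CPM. Its groups overlap in these CPM values and separate only after TMM scaling.

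In legs labelled Myc the same contrast gave values mostly below 0. The sum of the members was 33795, 29712 and 31466 CPM in contracted legs and 33321, 37229 and 32431 CPM in uncontracted ones. The fitted change lay below 0 for 65 of 86 members, with a median of -0.10, beside 50.8% and a median of -0.01 over all genes. This comparison shares the uncontracted Myc libraries with the comparison of Myc at rest, so the 2 are not independent. Again 0 members passed, where 3.89% of all genes did, while 11 members were lower and 0 higher at an unadjusted p under 0.05, compared with 6.13% and 9.84% of all genes. In 19 members all contracted libraries lay below all uncontracted ones, and in 1 (Ndufv3) above, compared with 9.20% and 10.3% of all genes. The 19 came from every complex, with 7 in complex I, 1 in II, 2 in III, 2 in IV, 4 in V and 3 among the assembly factors. When libraries were scaled by their totals alone, 12 members were lower without overlap.

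Markers of other cells moved in the same legs, and also on contraction in controls. In controls 2 of 2 neutrophil genes tested passed as higher and 1 of 3 macrophage genes as lower, where 2.80% of all genes passed. There all 4 erythrocyte genes tested lay above 0, while 3 of 4 fibroblast genes (median -0.32) and 8 of 9 fast fibre genes lay below 0. Fibroblast genes summed to 639 to 701 CPM in uncontracted legs labelled Myc and to 635, 1338 and 1186 CPM in contracted Myc 1, 2 and 3, and all 4 tested lay above 0 (median 0.63). Fast fibre genes summed to 125979 to 137942 CPM and to 121810, 142923 and 142404 CPM, so that in both lists contracted Myc 1 stood below contracted Myc 2 and 3. All 4 erythrocyte genes tested lay above 0 and 2 passed, and 2 of 2 neutrophil genes passed as higher, where 3.89% of all genes passed. Of 3 macrophage genes tested 1 passed as higher and 2 lay below 0 (median -0.29). Macrophage genes summed to 73.7 to 89.8 CPM in uncontracted and 70.6 to 81.1 CPM in contracted legs labelled Myc. The part of these markers in the level of the respiratory genes was not tested.

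**Figure D3:**
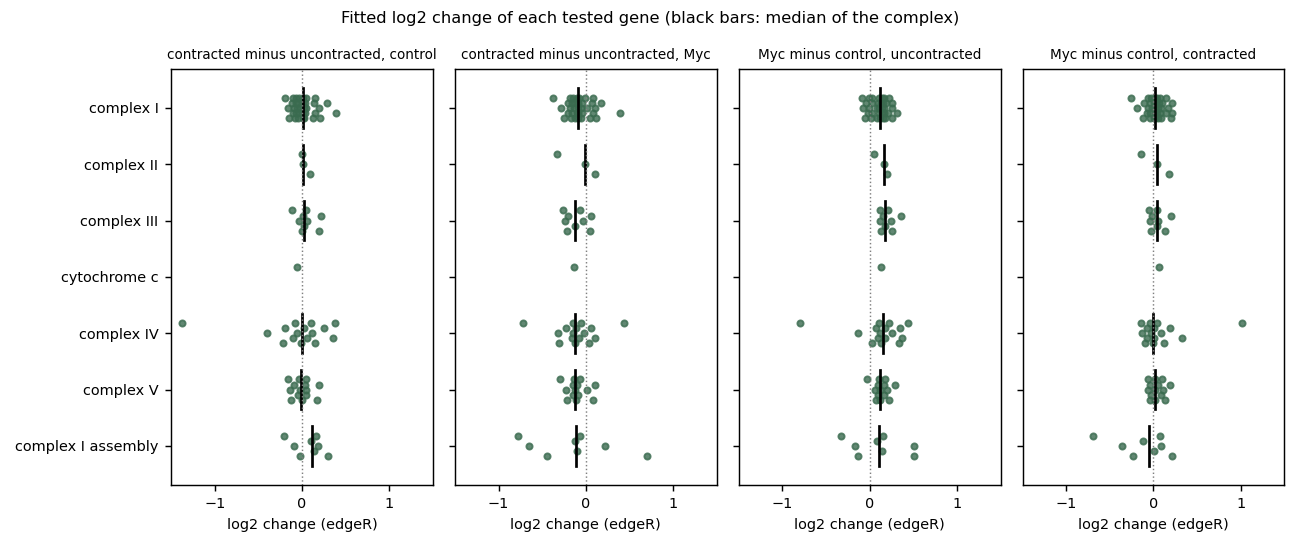
Fitted log2 change of each of the 86 tested genes in 4 comparisons (edgeR, 1 point per gene, black bars at the median of each complex). Points centre near 0 for contraction in controls, lie to the left of 0 for contraction in legs labelled Myc and to the right for Myc in uncontracted legs, and no point passed the test.

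Cox4i1, the most abundant isoform of the regulatory subunit IV of complex IV (chromosome 8, 120668222 to 120674207, plus strand, build mm10), came nearest to the threshold. It had 1255, 1660 and 1932 CPM in uncontracted and 1282, 778 and 956 CPM in contracted legs labelled Myc, where contracted Myc 1 lay above uncontracted Myc 1. The log2 change was -0.72 ± 0.21 (95% interval -1.16 to -0.28) and the adjusted p was 0.060. DESeq2 gave an adjusted p of 0.0401, edgeR on the 6 compared libraries alone 0.0385, and edgeR without the filter on low counts 2.26e-05. Without contracted Myc 1 the log2 change was -0.94 (adjusted p = 0.00691) and without uncontracted Myc 1 it was -0.90 (adjusted p = 0.0223). It was smaller, -0.51 (adjusted p = 0.315), without uncontracted Myc 3 and -0.57 (adjusted p = 0.313) without contracted Myc 2. With the contracted libraries numbered 2 and 3 left out it was -0.35 (adjusted p = 0.937), which leaves contracted Myc 1 alone in its group and assumes that it varies like the others. In controls Cox4i1 had 1136, 1489 and 1021 CPM uncontracted and 1297, 1032 and 901 CPM contracted, which overlap.

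Other members lay lower without passing. Cox5b had 219.7, 250.3 and 205 CPM in uncontracted and 205, 167 and 177 CPM in contracted legs labelled Myc (-0.32 ± 0.12, adjusted p = 0.172). Ndufv1, which binds NADH at the tip of complex I and whose promoter is shown above, had 416, 441 and 412 CPM in uncontracted and 429, 409 and 394 CPM in contracted controls. In legs labelled Myc it had 446, 483 and 538 CPM against 448, 321 and 394 CPM, where contracted Myc 1 and uncontracted Myc 1 touch (-0.37 ± 0.14, adjusted p = 0.174). Without contracted Myc 1 its change was -0.50 with an adjusted p of 0.0397, whereas it was -0.25 (adjusted p = 0.568) without uncontracted Myc 3 and -0.26 (adjusted p = 0.588) without contracted Myc 2. Sdhb, with 902, 779.6 and 802 CPM in uncontracted and 823, 936 and 808 CPM in contracted controls, had 913, 1113 and 889 CPM against 883, 777 and 701 CPM (-0.33 ± 0.13, adjusted p = 0.199), and Sdha and Sdhc of the same complex overlapped. Atp5k had 1837, 2137 and 1887 CPM against 1698, 1496 and 1666 CPM (-0.30 ± 0.12, adjusted p = 0.196). Among the assembly factors, Ndufaf6 had a log2 change of -0.78 ± 0.33, Ndufaf1 of -0.65 ± 0.29 and Ndufaf4 of -0.44 ± 0.20, each at an adjusted p of 0.234 to 0.266. Ndufaf4 had 26.2, 39.6 and 35.8 CPM in contracted controls and 30.0, 34.1 and 23.9 CPM in contracted legs labelled Myc. Without the 4 libraries that go against their labels the change on contraction in legs labelled Myc was nearer to 0, at -0.14 for Cox5b, -0.14 for Ndufv1, -0.21 for Atp5k, -0.24 for Ndufaf1 and -0.39 for Ndufaf4.

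**Figure D4:**
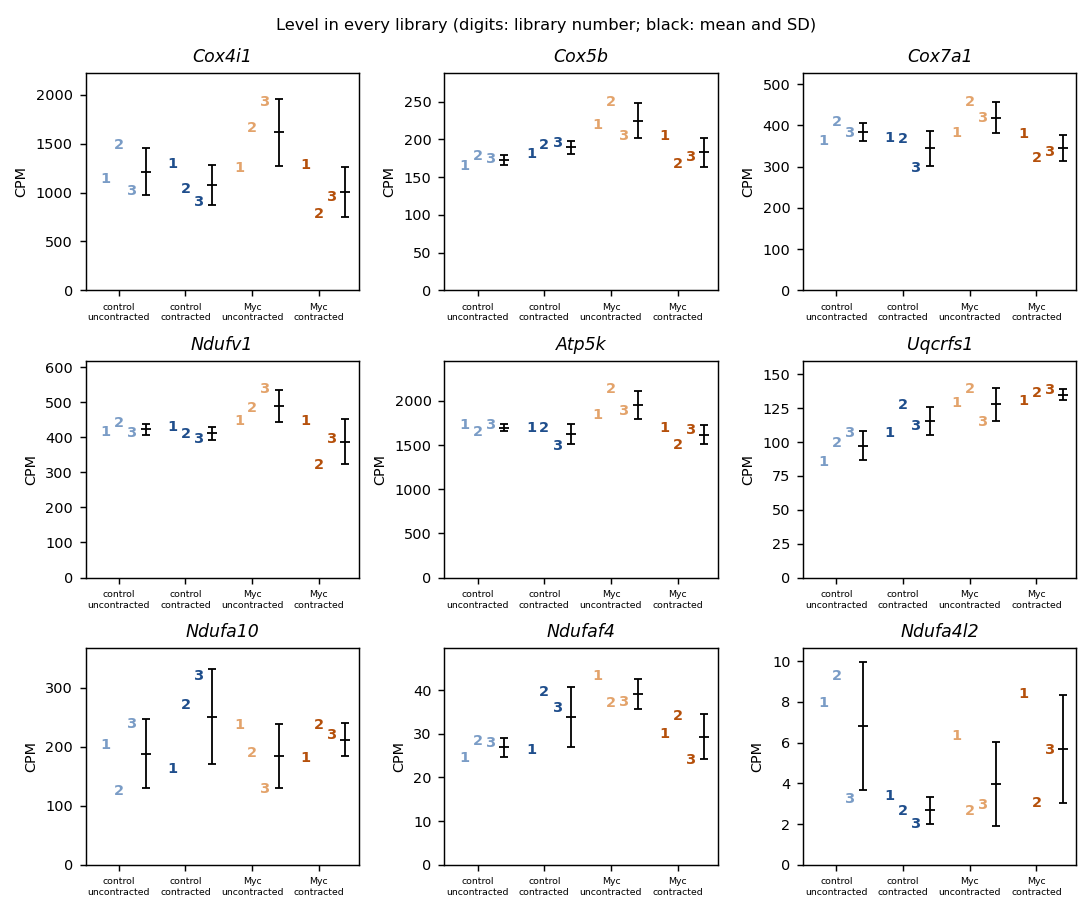
Level of 9 named genes (CPM, from 0) in every library, with digits for the library number within each group and black marks for the mean and SD. Contracted Myc 1 lies above contracted Myc 2 and 3 for Cox4i1, Cox5b, Cox7a1, Ndufv1 and Ndufa4l2, and the mean of Uqcrfs1 is lowest in uncontracted controls.

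The contracted legs labelled Myc did not act as 1 group. Of the 86 members, contracted Myc 2 held 59 below and 8 above all 3 uncontracted Myc libraries, and contracted Myc 3 held 54 below and 9 above. Contracted Myc 1 held 26 below and 23 above, and the same counts for contracted controls 1, 2 and 3 were 7 and 16, 13 and 20, and 24 and 16. Over all tested genes these shares were 23.0 to 31.4% below and 26.1 to 31.2% above in each of the 6 libraries. The median log2 level of the members, relative to the mean of the 12 libraries, was 0.11 in contracted Myc 1, -0.08 in contracted Myc 2 and -0.06 in contracted Myc 3, beside 0.08, 0.14 and 0.07 in the uncontracted legs labelled Myc. Contracted Myc 1 (32 Myc reads) lay within the range of the uncontracted Myc libraries. Contracted Myc 2 and 3 (0 and 2 Myc reads) lay within that of the controls, which ranged from -0.13 to 0.03. Contracted control 3 (59 Myc reads) had -0.09 and contracted control 2 (10 Myc reads) had 0.00. Whether the level of the members follows the Myc reads was not tested. When the 4 contracted libraries numbered 2 and 3 were left out, the median change on contraction in legs labelled Myc was 0.02, with 49 of 87 members above 0, and the direction of the group thus rests on those libraries.

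**Figure D5:**
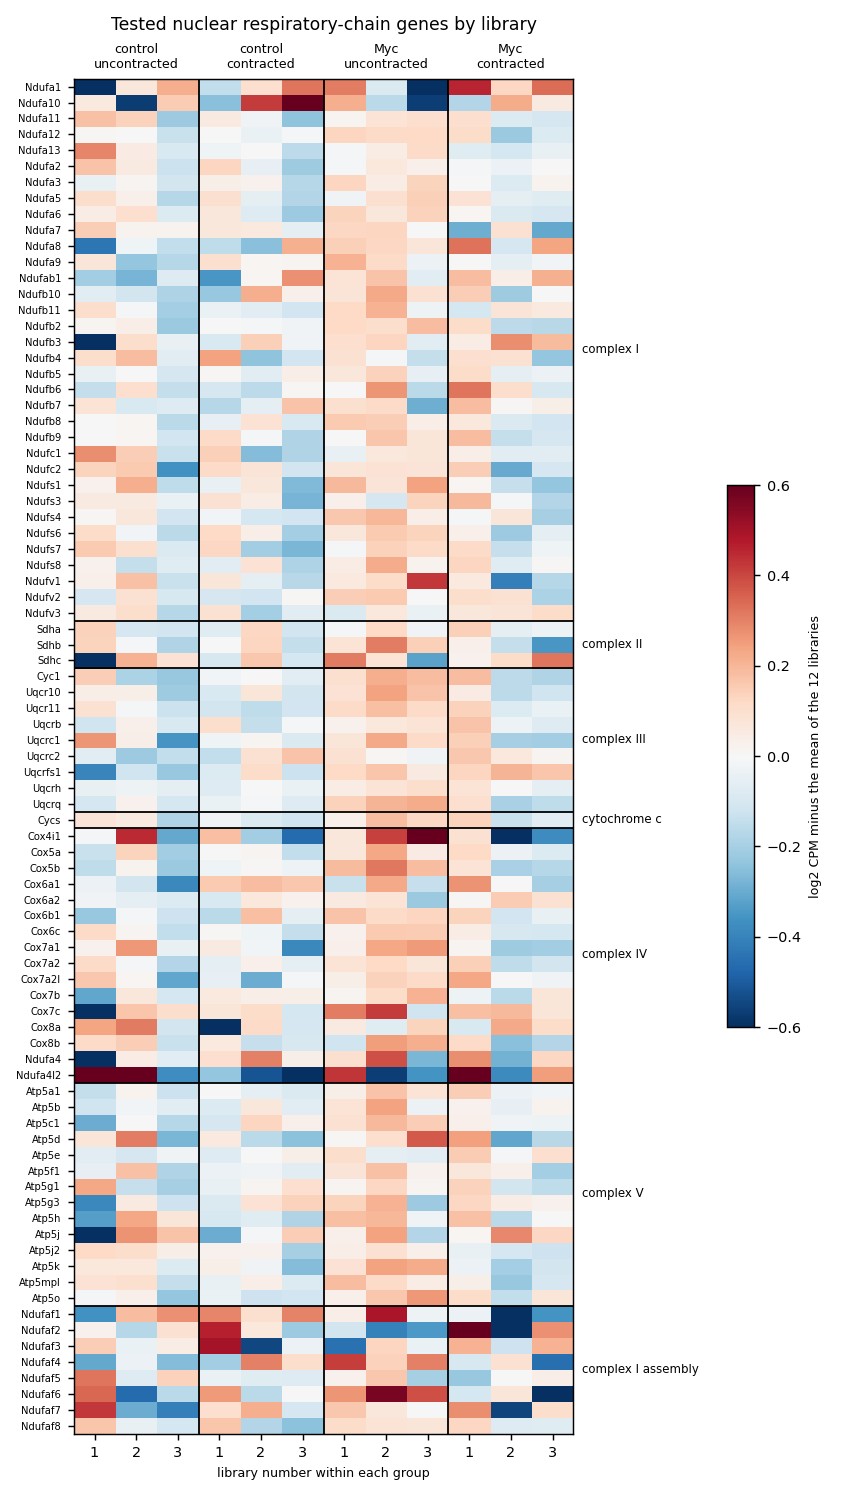
Log2 CPM of the tested genes, except 1 that is not reported by name, in each library, minus the gene's mean over the 12 libraries, by complex (red above, blue below the mean, colours saturate at 0.6). Uncontracted Myc 1 to 3 and contracted Myc 1 are mostly red, while uncontracted control 3, contracted control 3 and contracted Myc 2 and 3 are mostly blue.

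Averaged over both genotypes, contraction again passed 0 members, where 7.47% of all genes passed. The median log2 change was -0.06, with 60 of 86 members below 0, compared with 50.4% of all genes and a median of 0.00. At an unadjusted p under 0.05, 5 members were lower and 0 higher, compared with 7.59% and 12.6% of all genes. Cox4i1 stood at -0.47 ± 0.15 with an adjusted p of 0.0602, and passed with DESeq2 (0.0479), without the low-count filter (8.96e-05) and when any 1 of 4 libraries was left out. These were uncontracted control 3 (0.0286), contracted control 1 (0.0121), uncontracted Myc 1 (0.0205) and contracted Myc 1 (0.00891). Without the 4 contracted libraries numbered 2 and 3 the change was -0.12. Cox7a1, a muscle form of complex IV, had 362, 407 and 382 CPM in uncontracted and 369, 367 and 296 CPM in contracted controls, then 382, 458 and 417 CPM and 379.9, 321 and 335 CPM in legs labelled Myc. Its averaged change was -0.25 ± 0.10 with an adjusted p of 0.135, or -0.09 without the 4 libraries.

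Since both legs of an animal were taken, each member was also followed within animals. If the libraries that go against their labels are not from the animals named, 4 of these 6 pairs are not pairs, and without them only the first pair of each genotype is left. In 6 members the contracted leg was the lower one in 6 of 6 animals, and in 2 it was the higher one, compared with 5.06% and 6.86% of all tested genes, after TMM scaling. In CPM by library totals only Ndufs1 and Ndufs4 were lower and Ndufa1 higher in 6 of 6 animals, compared with 3.94% and 7.5% of all tested genes. The lower ones were Ndufa2, Ndufa13, Ndufs1 and Ndufs4 of complex I and Atp5j2 and Atp5k of complex V. The differences within animals, contracted minus uncontracted on the log2 scale after TMM scaling, are given for controls 1 to 3 and then Myc 1 to 3. Ndufs1, the largest iron-sulfur subunit of complex I, had -0.07, -0.15 and -0.11, then -0.18, -0.21 and -0.47. Its levels were 136, 148 and 133 CPM in uncontracted and 129, 146 and 120.4 CPM in contracted controls, and 160.0, 154 and 155 CPM against 142, 127 and 123 CPM in legs labelled Myc. The last of these pairs of groups do not overlap.

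Ndufs4, an accessory subunit whose loss in mice gives a model of Leigh syndrome, had 92.3, 92.0 and 93.7 CPM against 90.8, 89.0 and 92.0 CPM in controls and 108, 116 and 92.6 CPM against 96.4, 101 and 86.8 CPM in legs labelled Myc. Ndufa13 had 830.2, 671 and 705 CPM against 667, 708 and 661 CPM in controls and 705, 766 and 719.5 CPM against 678, 658 and 714 CPM in legs labelled Myc. Ndufa2 had 1094, 965 and 984 CPM against 1063, 981 and 912 CPM in controls and 1017, 1112 and 975 CPM against 1015, 990.1 and 1059 CPM in legs labelled Myc. Ndufs4 differed within animals by -0.0005 (control 3) to -0.24 (Myc 3). Ndufa2 differed within animals by -0.01 to -0.10, and in CPM its contracted leg was the higher one in control 2 and Myc 3. That of Ndufa13, Atp5k and Atp5j2 was the higher one in control 2.

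Atp5k differed within animals by -0.03 to -0.45, and had 1724, 1648 and 1726 CPM in uncontracted and 1688, 1695 and 1494 CPM in contracted controls. Atp5j2 differed by -0.08 to -0.24, and had 871, 940.5 and 809 CPM in uncontracted and 826, 786 and 806 CPM in contracted legs labelled Myc. The higher ones were Ndufa1 and Uqcrfs1. Ndufa1, a small membrane subunit encoded on the X chromosome, had 12.2, 27.8 and 35.8 CPM in uncontracted and 24.9, 31.0 and 37.9 CPM in contracted controls, and 36.2, 28.4 and 17.5 CPM and 40.5, 31.6 and 38.4 CPM in legs labelled Myc. Its averaged log2 change was 0.34 ± 0.19, with an adjusted p of 0.353, and its pairs of legs differed by 0.03 to 0.95. Uqcrfs1 had 107, 127 and 112 CPM in contracted controls and 131, 136 and 138 CPM in contracted legs labelled Myc, and its pairs differed by 0.01 to 0.32, although in CPM the contracted leg of Myc 2 was the lower one. None of the 8 passed in any comparison. In 4 other members (Atp5c1, Ndufaf4, Cox6b1 and Ndufa4l2) the legs differed one way in all 3 controls and the other way in all 3 animals labelled Myc, as in 2.52% of all genes, with the same limit on the pairs.

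Between the contracted legs of the genotypes the members differed little. The median log2 change for Myc was 0.02, with 52 of 86 above 0 and 34 below, where 50.3% of all genes lay below 0, and the groups did not overlap in 2 higher (Uqcr11 and Uqcrfs1) and 2 lower members (Ndufa9 and Ndufaf1), compared with 4.21% and 3.68% of all genes. Here too 0 members passed, beside 0.00% of all genes, and at an unadjusted p under 0.05 there was 1 lower (Ndufaf1) and 0 higher, compared with 1.48% and 1.59% of all genes. Ndufaf1, which helps to build complex I, had 16.1, 14.5 and 17.6 CPM in contracted controls and 13.3, 6.69 and 10.7 CPM in contracted legs labelled Myc, beside 9.78, 14.2 and 17.6 CPM and 14.0, 20.5 and 12.4 CPM in the uncontracted legs. The log2 change was -0.69 ± 0.29 and the adjusted p 0.999 (-0.34 without the 4 libraries). With the 4 libraries that go against their labels left out, the median became 0.13 from 1 library per genotype in contracted legs.

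The interaction, that is the change on contraction in legs labelled Myc minus that in controls, asked whether Myc alters the response. Its median over the members was -0.11, with 64 of 86 below 0, all 9 genes of complex III among them, where 50.4% of all genes lay below 0. Again 0 members passed, beside 0.00% of all genes. At an unadjusted p under 0.05, 3 members were lower (Ndufaf4, Cox5b and Ndufaf1) and 1 higher (Ndufa4l2), compared with 2.65% and 2.31% of all genes. For Cox5b, which had 180.3, 193 and 195 CPM in contracted controls, the value was -0.42 ± 0.17, with an adjusted p of 0.918, or -0.22 without the 4 libraries. The interval around a single member's interaction reached a median of 0.38 to either side. Without the 4 libraries the median was -0.02.

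Other genes of the pathway were followed in the same libraries. Of 48 assembly factors of the other complexes and of complex I outside the Nduf names, 38 were tested and 31 lay above 0 for Myc at rest. Of 17 citric acid cycle genes 16 were tested and 12 lay above 0, and of 13 genes of coenzyme Q synthesis 10 were tested and 8 lay above 0. Of all tested genes 50.7% lay below 0 in that comparison. For contraction in legs labelled Myc, 27 of the 38 assembly factors, 12 of the 16 citric acid cycle genes and 8 of the 10 coenzyme Q genes lay below 0. Of all tested genes 50.8% did. No gene of these 3 lists passed in any comparison. Of 13 mitochondrially encoded subunits, 8 had reads, while mt-Nd3, mt-Nd4l, mt-Co2, mt-Atp6 and mt-Atp8 had none in any library. Of the 8, 7 were tested and none passed. The summed level, which covers those 8 only, was 292699 ± 35796 CPM in uncontracted controls and 319237 ± 29153 CPM in uncontracted legs labelled Myc. Among 16 regulators of mitochondrial production 8 were tested. Ppargc1a, which encodes the coactivator PGC-1alpha, rose on contraction by 1.94 ± 0.36 in controls (adjusted p = 0.00206) and by 2.60 ± 0.39 in legs labelled Myc (adjusted p = 0.000142). The related Pprc1 rose by 1.80 ± 0.37 in controls (adjusted p = 0.00567) and had 0.62 ± 0.32 in legs labelled Myc (adjusted p = 0.362). No other regulator tested passed in these comparisons. In the interaction no regulator passed, so Pprc1 was not shown to respond differently between the genotypes.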

How the data were processed

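The authors deposited 1 table of whole-number read counts per gene, not normalized, from QuantSeq 3′ mRNA libraries made after Trizol extraction, as the labels' protocols state. The submitters' processing notes list FastQC 0.11.5, STAR 2.5.2a, SAMtools, HTSeq 0.6.0 and mm10, without roles. Strand setting and filters are not given in the sources used here, so overlapping genes cannot be separated. Names, biotypes and coordinates came from GENCODE M21 (419 of 47643 IDs unmatched), and 11 pseudogenes with matching names were left out. In R 4.3.3, edgeR 4.0.16 tested the counts by a 2-sided quasi-likelihood F test on 4 group means over 12 libraries, after TMM scaling and filterByExpr (minimum count 10). A gene passed when its p, adjusted by Benjamini-Hochberg over 6676 genes, was under 0.05. Each SE is the change over the root of F. CPM uses library totals, while overlap between groups uses CPM after TMM scaling. Centred log2 levels and differences between legs use TMM scaling with a prior count of 2. Any member could be named, except 1 that is not reported by name here or drawn in the plot of log2 levels by library, though it stays in the counts, sums and medians. Values in every library are given for the 3 smallest p per comparison, isoform pairs, the highest of each complex and members of 1 sign in 6 animals. Others were chosen after their values were seen. The members and lists were chosen with earlier results of these data known. The steps were tested on simulated data. Legs of the same number and genotype come from 1 animal, per the titles. Within animals, deviations from group means correlated at -0.122 to 0.112 over all genes and at -0.162 to 0.429 over the members. No 2 libraries of a group were as alike as sampling noise allows (chi-square per degree of freedom 2.47 to 9.31). Alternatives were other scalings, filters, DESeq2 1.42.0, an animal block and libraries left out.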

Additional observations from a re-analysis of the deposited data

Results flagged for a closer look

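In 4 members the contracted leg lay above the uncontracted leg in all 3 controls and below it in all 3 animals labelled Myc, or the reverse, as did 2.52% of all 6676 tested genes (168 genes). By library totals 7 members did (8.14%, against 2.5% of all genes), these 4 included. In each genotype the pairs of animals 2 and 3 rest on contracted libraries whose Myc reads go against their labels. Without them only 1 pair per genotype is left. None of these differences passed edgeR's interaction test. Atp5c1, the gamma subunit of ATP synthase, was higher after contraction in controls and lower in legs labelled Myc, with an interaction of -0.33 ± 0.17 on the log2 scale (adjusted p = 0.967). Ndufaf4, an assembly factor of complex I, had the same pattern with an interaction of -0.74 ± 0.28 (adjusted p = 0.899), and so had Cox6b1 of complex IV with -0.26 ± 0.18 (adjusted p = 0.970). Ndufa4l2 had the reverse pattern, lower after contraction in all 3 controls and higher in all 3 animals labelled Myc, with an interaction of 1.82 ± 0.76 (adjusted p = 0.929) from 3 to 15 reads per library.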

How the results depend on the processing

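The count of 0 members passing held in every comparison under other scalings, the stricter filter and the structural subunits alone. Contraction in legs labelled Myc passed 1 member without the low-count filter, with DESeq2 and with only the libraries compared, and contraction averaged over genotypes passed 1 without that filter and with DESeq2, in each case Cox4i1. Leaving out 1 library at a time gave 0 to 2 passing members for contraction in legs labelled Myc and 0 to 1 for the average, the 2 being Cox4i1 and Ndufv1 without contracted Myc 1, and 0 elsewhere. The median log2 change then ranged from -0.04 to 0.02 (contraction in controls), -0.16 to -0.06 (contraction, labelled Myc), -0.09 to -0.04 (average), 0.10 to 0.19 (Myc at rest), -0.03 to 0.05 (Myc in contracted legs) and -0.16 to -0.07 (interaction). The members above 0 ranged in the same order over 32 to 52, 16 to 26, 21 to 32, 65 to 76, 33 to 62 and 17 to 27, with the 33 from leaving out contracted Myc 1.

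The next values leave out contracted libraries 2 and 3 of both genotypes, whose Myc reads go against the labels. Medians were then 0.0165 for contraction in legs labelled Myc, 0.0158 for the average, 0.13 for Myc in contracted legs and -0.0233 for the interaction. In the 1st, 2nd and last of these, 49, 49 and 37 of 87 members lay above 0. The cause was not tested. The count of members above 0 was added after seeing the data.

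With the animal as a replicate block, 0 members passed in all 4 comparisons that involve contraction, the medians were 0.01, -0.10, -0.06 and -0.11, and the adjusted p of Cox4i1 was 0.0591 in legs labelled Myc and 0.0607 averaged, so that the block changed no call. The block cannot be fitted to the comparisons of Myc, which are between animals. Whether legs of 1 animal resemble each other is not settled by the correlations of their deviations. The summed level of all members in uncontracted controls, contracted controls, uncontracted Myc and contracted Myc was 43653, 45319, 50639.5 and 45369.8 CPM relative to reads not encoded by the mitochondrial genome, a smaller total. It was 31360.3, 30856, 34293 and 31029.7 CPM with TMM scaling, and 23819, 23996, 26766 and 24631 CPM without the most abundant member of each complex, so uncontracted Myc remained the highest mean in each. In comparisons of 2 groups the interval around a single member's change reached a median of 0.27 log2 units to either side. Among the 8 assembly factors this median was 0.57 to 0.59, so the limit differs between members.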

Other observations

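Atp5g2, a c-ring gene of ATP synthase with too few reads for the filter, was singled out after its values were seen. It had 3, 3 and 2 reads in uncontracted and 5, 5 and 5 in contracted controls, and 2, 3 and 2 against 5, 6 and 7 in legs labelled Myc. All 6 contracted libraries therefore lay above all 6 uncontracted ones. The share of all genes with such a split is not given here, so how unusual it is was not tested. Of the words searched at the ends of Atp5g2 transcripts, 52.6% also occur in transcripts of other genes, so its counts are uncertain. Pooled, the contracted legs had 33 reads against 15, a ratio of 2.225 scaled to library totals (exact 95% interval 1.18 to 4.41, counting error only). Because the gene was picked for these same counts and the legs are pooled, the interval is no test of a change. Without the low-count filter its averaged log2 change was 1.08 with an adjusted p of 0.278 by edgeR. Atp5g1 and Atp5g3, which encode the same mature protein at far higher levels, did not separate in this way.

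Members rarely stood apart in 1 library. Of the 79 with a mean of at least 20 CPM, 8 lay 0.5 or more log2 units below the median of the other 11 libraries in uncontracted control 1. They were Cox7c (-1.51), Ndufa1 (-1.23), Atp5j (-0.92), Ndufb3 (-0.87), Sdhc (-0.87), Ndufa4 (-0.84), Uqcrfs1 (-0.51) and Ndufa8 (-0.50). Over all 2933 genes at such a mean, 7.67% lay that far below in that library. In each of the other 11 libraries 0 to 2 members lay that far below and 0 or 1 above, where 3.41 to 9.89% and 1.94 to 9.92% of all genes did.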
